A study of Mus musculus with 23 samples.

Results

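The genes described here encode the subunits, regulators and assembly factors of the proteasome. They were taken by name, as every row of the table whose symbol is Psm followed by a letter from a to g and a number, which gave 48 of the 24475 genes listed. By role they comprised 7 alpha ring subunits of the core, the germ cell alpha subunit Psma8, 4 structural beta subunits, 3 constitutive catalytic subunits (Psmb5, Psmb6 and Psmb7), 3 immuno catalytic subunits (Psmb8, Psmb9 and Psmb10), the thymic catalytic subunit Psmb11, 6 ATPases and 14 non-ATPase subunits of the regulatory particle, 4 activators, the inhibitor Psmf1 and 4 assembly chaperones. The genes lie on 16 chromosomes, so most are not neighbours.

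The proteasome is the protease that degrades ubiquitin-tagged proteins. Its core is a barrel of stacked rings, the outer ones of alpha and the inner ones of beta subunits, and a regulatory particle at its end recognises, unfolds and feeds in the substrate. Only some beta subunits cut peptide bonds. Lymphoid cells and cells exposed to interferon gamma build an alternative core, the immunoproteasome, in which Psmb8, Psmb9 and Psmb10 take the places of Psmb5, Psmb6 and Psmb7 and which yields peptides suited to presentation on MHC class I. Cortical thymic epithelial cells have a further form, the thymoproteasome, with Psmb11, which takes part in the positive selection of CD8 T cells.

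Poly(A) RNA of 23 mouse samples was sequenced. As controls, called thymus, 6 samples of normal C57BL/6 thymus were used. The T-cell acute lymphoblastic leukemia (T-ALL) samples were spleens of BALB/c Rag2-/-Il2rg-/- mice, which lack T, B and natural killer cells, that had developed leukemia after a lobe of newborn thymus was placed under the kidney capsule. The donor thymus was wild type in 14 samples (WT T-ALL) and Notch3 knockout in 3 (Notch3 KO T-ALL), and every T-ALL host carried the same 2 host deletions. The methods of the study name B6.Ly5.1 mice as the source of wild-type lobes. The knockout has a β-galactosidase gene placed in frame in the first coding exon of Notch3, and each wild-type leukemia arose without an engineered driver, so that each is a disease of its own. Spleens were not sorted, so host cells were part of each T-ALL sample, and tissue and host strain differ between thymus and T-ALL in every sample. The labels do not give the age of the mice or say that the thymus samples came from separate animals, so p-values measure the spread between these samples, which may in part be technical.

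Values are log2(RPKM + 1), where RPKM is a transcript level per length and per library, scaled in each library to the same 75th percentile. Differences between groups are given on this scale and understate the fold change of genes near 0. In bulk RNA, a smaller number of cells of a type cannot be told apart from less RNA per cell. Notch3 itself stood at 3.22, 2.59 and 3.74 in the 3 Notch3 KO T-ALL libraries, while thymus had 2.62 to 4.29 and WT T-ALL 3.17 to 5.78. A value summed over the transcript does not check an insertion at its start. T lineage markers were high in every group, with a summed RPKM of 3583 to 4760 over 8 markers in thymus. In WT T-ALL the sum was 1080 to 2865, and in Notch3 KO T-ALL 1524 to 1805.

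Several features of the libraries moved with the groups. The mean log2 level of 7 erythroid genes was 0.47 to 1.87 in thymus. In WT T-ALL it was 2.64 to 6.95 and the Notch3 KO libraries had 5.87 to 8.19, so that thymus and T-ALL did not overlap. The summed RPKM of 6 neutrophil markers was 52.2 to 508.3 in thymus. In WT T-ALL it was 618.7 to 79940, with a median of 2093, and the Notch3 KO libraries had 195.2 to 7185. For 9 macrophage and dendritic cell markers it was 18.9 to 91.8 in thymus, 24.01 to 371.7 in WT and 229.6 to 343.0 in Notch3 KO leukemias. The 4 proliferation markers summed to 234.7 to 479.7 in thymus, 428.5 to 745.0 in WT and 549.4 to 752.1 in Notch3 KO leukemias. Neutrophil sums of WT T-ALL, and macrophage and proliferation sums of Notch3 KO T-ALL, thus lay above every thymus sample. None of these markers was at 0 throughout a group. The 4 B cell markers were low, at 2.66 to 9.56 in thymus and at most 1.18 in T-ALL. The part of these cells and of proliferation in the proteasome differences was not tested. The median log2 level of ribosomal protein genes was 9.70 to 10.7 in thymus, with 10.1 to 12.03 for WT T-ALL and 10.5 to 11.5 for Notch3 KO T-ALL. The levels of 5 genes (Srsf4, Sco2, Nr2c2ap, Hnrnph3 and 1110002L01Rik) parted the libraries into set A, with a mean log2 level of at least 4.01, and set B, with at most 2.73. Set A held 2 thymus, 4 WT T-ALL and all 3 Notch3 KO T-ALL libraries, and set B held 4 thymus and 10 WT T-ALL libraries. The sets were read from the values and no label names them. Proteasome transcripts were short, with a median of 1912 bases against 3318 bases for the genes that passed the filter below.

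The first comparison asked how proteasome genes stand in leukemia that arose from wild-type thymus, relative to normal thymus. Genes with an RPKM of at least 1 in at least 3 libraries were tested, which kept 46 of the 48 genes and left out Psma8 and Psmb11. Of these 46, 34 were higher in WT T-ALL and 0 lower (limma adjusted p under 0.05), while over all 11919 genes tested 29.3% were called higher and 22.3% lower. The median difference of the proteasome genes was 0.55, against 0.08 over all genes, and 44 of the 46 differences were above 0. The other 2, of Psmd4 and Psme4, did not reach an unadjusted p of 0.05. The groups did not overlap for 4 proteasome genes (Psmg1, Psmc1, Psmd7 and Psmb10), while over all genes 8.42% were higher and 6.64% lower without overlap. These 4 of 46, all higher, were near the share of all genes that were higher without overlap. Each role with a gene tested held at least 1 gene called higher, as the plot of differences by gene shows.

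**Figure D1:**
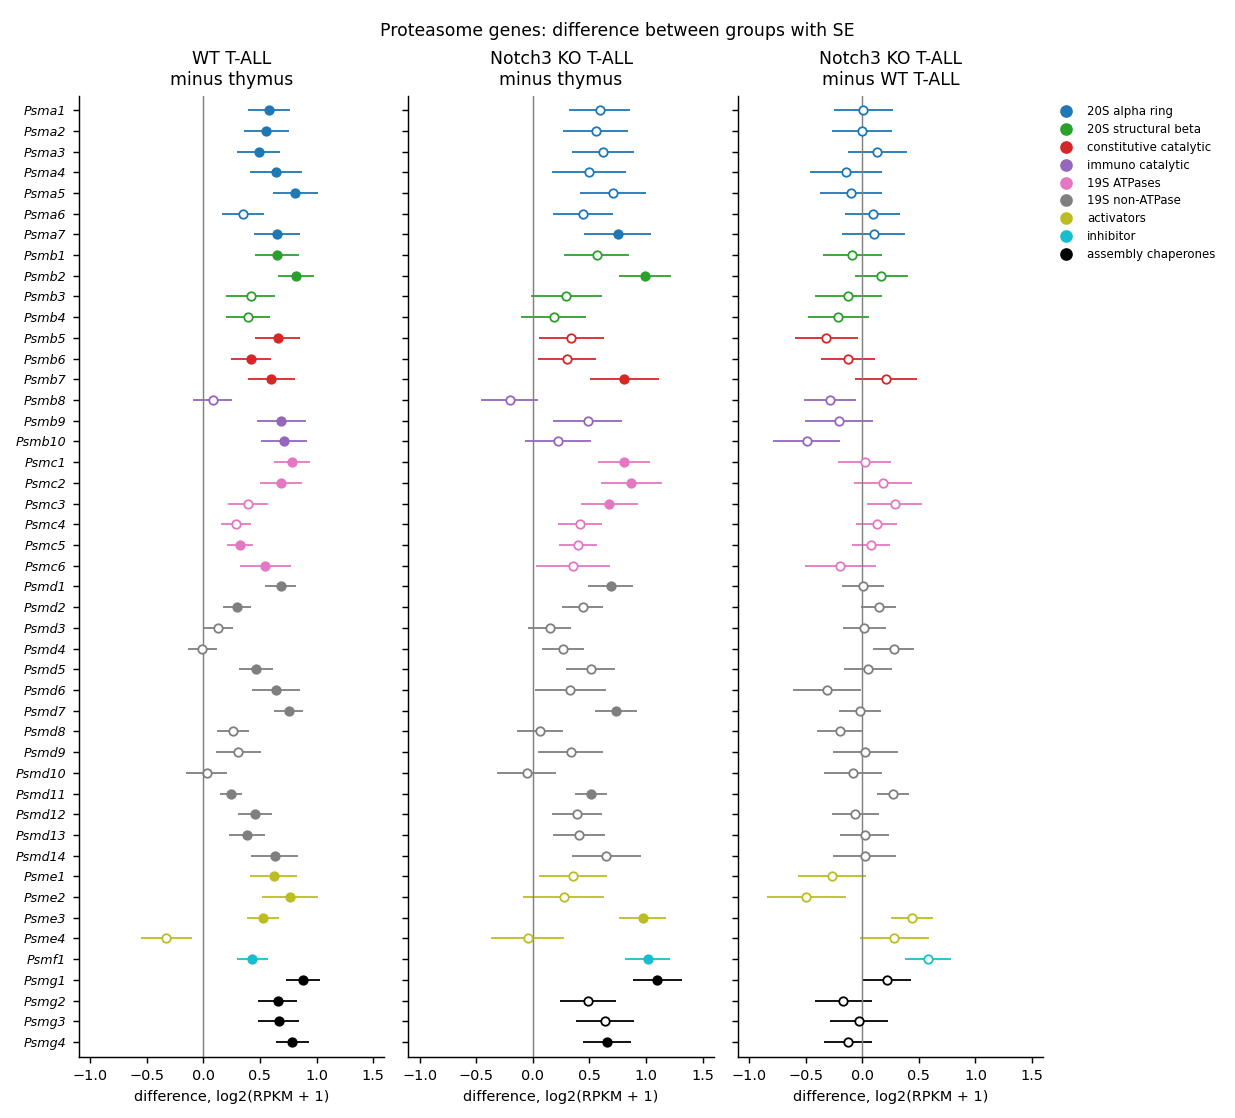
Difference in mean log2(RPKM + 1) with its SE for the 46 proteasome genes tested, in the 3 comparisons, coloured by role. Filled points passed a limma adjusted p of 0.05, which 34 genes did in WT T-ALL against thymus, 13 in Notch3 KO T-ALL against thymus and 0 between the T-ALL groups.

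That count moved with the normalization and with features of the libraries. Quantile normalization gave 23 genes higher and 1 lower (Psmd4), with a median difference of 0.32. Of all genes, 24.7% were then higher and 25.5% lower. With the erythroid score as a covariate, 3 proteasome genes (Psmg1, Psmg2 and Psmg4) were called higher, where 7.23% of all genes were. The median difference was then 0.16. The erythroid scores of thymus and T-ALL do not overlap, so that score and group cannot be told apart. A correction of each library for GC content and transcript length left 14 genes higher and 2 lower (Psmd4 and Psmd10), with a median difference of 0.23, where 24.3% of all genes were higher and 27.4% lower. Within set B, with 10 WT T-ALL and 4 thymus libraries, 16 were higher (23.1% of all genes) and the median difference was 0.52. Within set A, with 4 and 2 libraries, 5 were higher (8.84% of all genes) and the median was 0.56. Without WT T-ALL 14, 36 and 48, which had the highest ribosomal protein levels, 25 were higher (28.5% of all genes), and without thymus 6 the number was 22 (25.7%). The counts with the erythroid score, with the correction and in both sets lay nearer to the share of all genes than the 34 did. Psmg1 was called higher in each of the 13 alternatives run other than single left-out libraries.

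Of the assembly chaperones, 4 of 4 were called higher, beside 29.3% of all genes, with a median difference of 0.73. Psmg3 was not called with the erythroid score as a covariate, and Psmg2 and Psmg3 were not called within set A. Psmg1, which pairs with Psmg2 to build the alpha ring, ranged from 4.26 to 4.82 in thymus (median 4.51) and from 4.94 to 6.08 in WT T-ALL (median 5.44). All 14 leukemias lay above all thymus samples, with a difference of 0.88 (SE 0.15, limma adjusted p = 4.31e-05). Psmg4, which pairs with Psmg3 at a later step, ranged between 3.91 and 4.35 in thymus and between 4.34 and 5.49 in WT T-ALL. It rose by 0.79 (SE 0.15, limma adjusted p = 0.000127), and 13 of 14 leukemias exceeded every thymus sample. Psmg2 and Psmg3 rose by 0.66 and 0.66 as well.

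Of the alpha ring subunits, which form the gate of the core, 6 of 7 were called higher, beside 29.3% of all genes, and Psma6 was not (difference 0.35, limma adjusted p = 0.115). Psma5 differed most, from 5.79 to 6.69 in thymus (median 6.22) to 6.34 to 8.12 in WT T-ALL (median 7.09). The difference was 0.81 (SE 0.20, limma adjusted p = 0.00185) and 12 of 14 leukemias lay above the thymus range. Among the structural beta subunits, Psmb1 and Psmb2 rose while Psmb3 and Psmb4 had differences of 0.42 and 0.40 that did not pass. Psmb2 went from 6.11 to 6.48 in thymus (median 6.36) to 6.41 to 8.04 in WT T-ALL (median 7.12), a difference of 0.82 (SE 0.16, limma adjusted p = 0.00019).

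In the regulatory particle, 4 of 6 ATPases and 9 of 14 non-ATPase subunits were called higher, beside the same 29.3% of all genes. The ATPase Psmc1 ranged from 6.21 to 6.51 in thymus and from 6.69 to 8.25 in WT T-ALL, without overlap, and the difference was 0.79 (SE 0.16, limma adjusted p = 0.000287). Psmd7, a partner of the deubiquitinase Psmd14, ranged from 5.48 to 5.78 in thymus and from 6.05 to 7.07 in WT T-ALL, also without overlap, with a difference of 0.75 (SE 0.13, limma adjusted p = 3.87e-05). Psmd14, which removes ubiquitin chains from the substrate, was higher by 0.63. The ubiquitin receptor Psmd4 (-0.01) and the assembly factor Psmd10 (0.03), also known as gankyrin, had differences near 0.

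The activators are caps that open the core without ubiquitin. Psme1 and Psme2, which together form the interferon-inducible cap PA28, were higher by 0.62 (SE 0.21) and 0.77 (SE 0.25), with limma adjusted p of 0.0156 and 0.0119. Psme1 ranged from 6.73 to 7.08 in thymus and from 6.96 to 8.44 in WT T-ALL, and Psme2 from 6.25 to 7.07 and from 6.72 to 8.52. The ranges overlapped for both, with 11 and 8 of 14 leukemias above every thymus sample. The nuclear cap Psme3 was higher by 0.53 and the inhibitor Psmf1, also known as PI31, by 0.43. Psme4, known as PA200 and linked to histone degradation, was the proteasome gene with the most negative difference (-0.33, SE 0.22, limma adjusted p = 0.224), which did not pass.

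The catalytic subunits set the activity of the core. By median RPKM, which is a level per length, their order in thymus was Psmb8 (212), Psmb7 (107), Psmb6 (102), Psmb5 (69.4), Psmb10 (39.5) and Psmb9 (36.6). In WT T-ALL it was Psmb8 (216), Psmb7 (162), Psmb6 (138), Psmb5 (103), Psmb9 (56.8) and Psmb10 (55.6). The ranges of Psmb9 and Psmb10 overlapped in either group, as did those of Psmb6 and Psmb7. Within libraries, Psmb8 was the highest of the 6 in 6 of 6 thymus and 12 of 14 WT T-ALL samples, with Psmb7 above it in WT T-ALL 14 and 111. In Notch3 KO T-ALL it was the highest in 1 of 3 libraries, with Psmb7 above it in libraries 1 and 2. Psmb9 and Psmb10 both lay below the 3 constitutive subunits in 6 of 6 thymus, 11 of 14 WT T-ALL and 3 of 3 Notch3 KO T-ALL samples, and in WT T-ALL 5, 48 and 110 both exceeded Psmb5.

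The 3 constitutive subunits were higher in WT T-ALL, although Psmb6 was at -0.11 with the GC content and length correction and Psmb7 at -0.13 with the erythroid score as a covariate. Psmb5, which carries the chymotrypsin-like activity, ranged from 5.48 to 6.39 in thymus (median 6.13) and from 5.70 to 7.76 in WT T-ALL (median 6.70), and 13 of 14 leukemias exceeded every thymus sample. Its difference was 0.66 (SE 0.20, limma adjusted p = 0.00876). Psmb6, with the caspase-like activity, differed by 0.42 (SE 0.17, limma adjusted p = 0.0461) and Psmb7, with the trypsin-like activity, by 0.60 (SE 0.21, limma adjusted p = 0.0195). With 7 and 5 of 14 leukemias above the thymus range, these 2 overlapped more.

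The immuno subunits did not behave alike. Psmb10 ranged from 5.15 to 5.53 in thymus (median 5.34) and from 5.65 to 7.21 in WT T-ALL (median 5.82), so that the groups did not overlap, and the difference was 0.71 (SE 0.20, limma adjusted p = 0.0056). Psmb9 ranged from 4.86 to 5.70 in thymus (median 5.23) and from 5.34 to 7.05 in WT T-ALL (median 5.85), with 10 of 14 leukemias above the thymus range and a difference of 0.69 (SE 0.21, limma adjusted p = 0.00944). Psmb8, by contrast, ranged from 7.25 to 8.16 in thymus (median 7.74) and from 7.33 to 8.62 in WT T-ALL (median 7.76). Its difference of 0.08 (SE 0.17, limma adjusted p = 0.709) did not pass, and it was below 0 in 6 of those 13 alternatives, at -0.31 under quantile normalization. The plot of catalytic subunits by library shows the overlap for Psmb8, with 2 of 14 leukemias above every thymus sample, beside the separation for Psmb10.

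**Figure D2:**
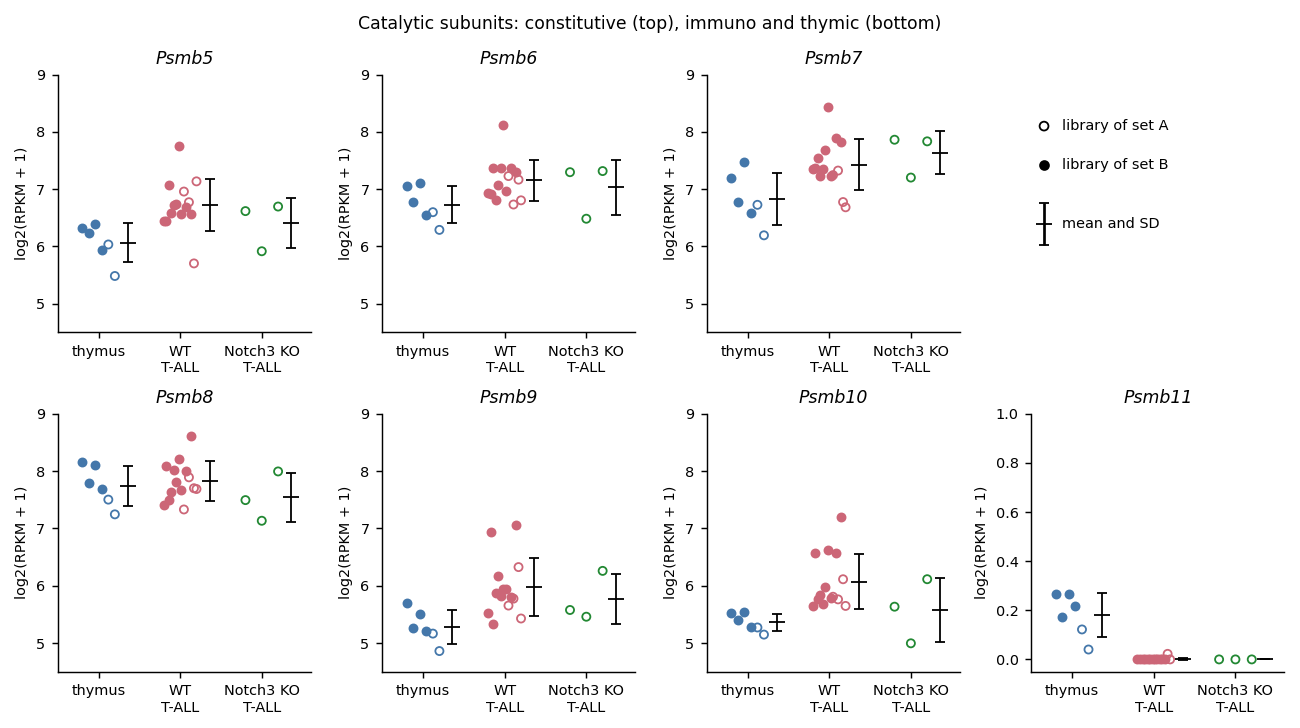
Level of the 7 catalytic subunits in each library, as log2(RPKM + 1), in thymus (n = 6), WT T-ALL (n = 14) and Notch3 KO T-ALL (n = 3), with mean and SD and a separate scale for Psmb11. The Psmb10 points of WT T-ALL all lie above those of thymus, those of Psmb8 overlap except for 2 WT T-ALL libraries above the thymus range, and Psmb11 is at most 0.27 everywhere.

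Psmb11, the thymic subunit, was barely seen even in thymus. Its RPKM there was 0.0283 to 0.204 (median 0.145), and it was listed at 0 in 13 of 14 WT T-ALL and in all 3 Notch3 KO T-ALL libraries. No fold is given against groups listed at 0. Cortical thymic epithelium, the only cell known to make it, is a small part of a whole thymus, and the summed RPKM of 9 of its markers was 77.3 to 115 in thymus and 9.85 to 55.8 in WT T-ALL. For Notch3 KO T-ALL it was 15.6 to 101, and 2 of the 9 were at 0 in all of its libraries. Most of that sum was the protease gene Ctsl, which macrophages also express, with a median RPKM of 90.8 in thymus, 19.7 in WT T-ALL and 18.0 in Notch3 KO T-ALL. The adhesion molecule Epcam had a median RPKM of 3.85 in thymus, 0.325 in WT T-ALL and 0.858 in Notch3 KO T-ALL. The medians in the same order were 0.694, 0.0117 and 0.0436 for the keratin Krt8, 0.646, 0.134 and 0.146 for the protease Prss16, and 1.40, 0 and 0 for Tbata. Those of Ly75 were 5.19, 4.16 and 3.35. The medians of the chemokine Ccl25 (2.83, 3.17 and 3.87) and of the Notch ligand Dll4 (0.0356, 0.0921 and 0.121) were not lower in T-ALL. Foxn1, the defining factor of thymic epithelium, was at most 0.0407 in any library, and was listed at 0 in 1 of 6 thymus, 11 of 14 WT T-ALL and 3 of 3 Notch3 KO T-ALL libraries. The part of epithelial content in the Psmb11 values was not tested. Psma8, the other gene that failed the filter, replaces Psma7 in the testis. It had an RPKM of at most 0.216 in thymus and 0.358 in Notch3 KO T-ALL, and in WT T-ALL the median was 0.191 with a highest value of 7.84, in WT T-ALL 108.

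Because each immuno subunit takes the place of 1 constitutive subunit, the ratio of the 2 within a library was compared between groups. It was taken as the difference of the log2 values, so that a scaling factor common to a library cancels apart from the offset of 1. For Psmb8 over Psmb5 the log2 ratio was 1.47 to 1.84 in thymus (median 1.72), 0.37 to 2.04 in WT T-ALL (median 1.097) and 0.88, 1.22 and 1.30 in Notch3 KO T-ALL. On the linear scale, Psmb8 made up 76.3% ± 1.77 (SD, n = 6) of the sum of both in thymus, 67.8% ± 7.95 (SD, n = 14) in WT T-ALL and 68.7% ± 3.40 (SD, n = 3) in Notch3 KO T-ALL. In 11 of 14 WT T-ALL and 3 of 3 Notch3 KO T-ALL libraries the ratio was below every thymus sample.

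The mean log2 ratio of Psmb8 over Psmb5 was lower by 0.58 in WT T-ALL than in thymus (difference -0.58, two-sided exact permutation p = 0.0218, adjusted p = 0.0653 over the 9 ratio tests), which missed the threshold after adjustment. The difference of Notch3 KO T-ALL from thymus was -0.55 (exact permutation p = 0.0119, the smallest the design allows, adjusted p = 0.0596). Within set A the difference of WT T-ALL from thymus was -0.60 (exact permutation p = 0.333, adjusted p = 0.6). Within set B it was -0.57 (exact permutation p = 0.046, adjusted p = 0.138), and neither passed after adjustment. Leaving out WT T-ALL 48, which had the highest ratio, gave -0.65 with an adjusted p of 0.0482 in exact permutation. No other single library left out made this difference pass. Quantile normalization gave -0.81 with an adjusted exact permutation p of 0.0211. The T-ALL groups differed from each other by 0.03 (exact permutation p = 0.928).

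In WT T-ALL the other 2 ratios had differences from thymus above 0 that did not pass. Psmb9 over Psmb6 had a log2 ratio of -1.61 to -1.34 in thymus and -2.17 to 0.03 in WT T-ALL, a difference of 0.27 (exact permutation p = 0.319), with 7 leukemias above and 2 below the thymus range. Psmb10 over Psmb7 had a mean of -1.46 in thymus and -1.35 in WT T-ALL (difference 0.11, exact permutation p = 0.555). In Notch3 KO T-ALL it was -2.23, -2.21 and -1.72, and the difference was -0.59 from thymus (exact permutation p = 0.0476, adjusted p = 0.107) and -0.70 from WT T-ALL (exact permutation p = 0.0132, adjusted p = 0.0596). The SD of the Psmb8 ratio was 0.14 in thymus and 0.54 in WT T-ALL, and that of the Psmb9 ratio 0.10 and 0.61.

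**Figure D3:**
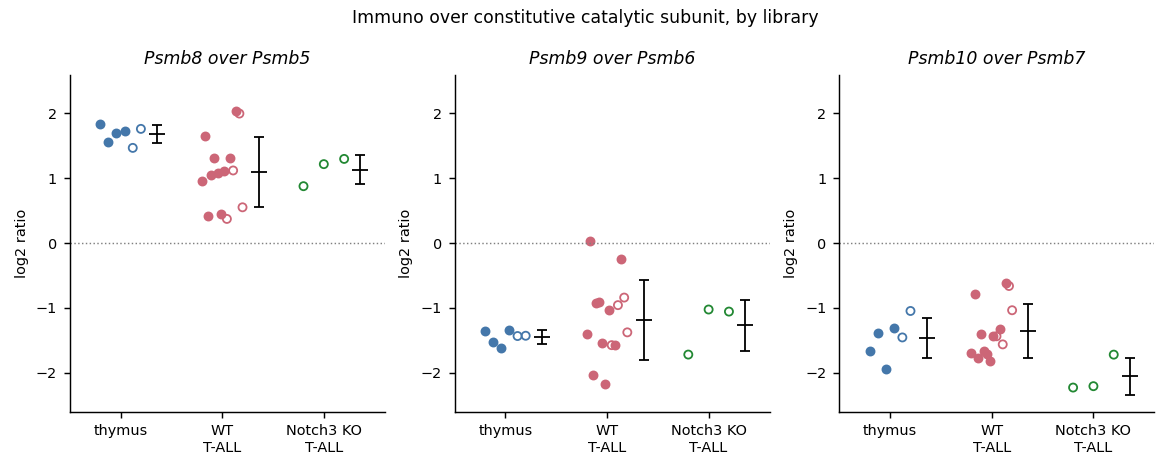
Log2 ratio of each immuno subunit over the constitutive subunit it replaces, in each library, with the mean and SD of thymus (n = 6), WT T-ALL (n = 14) and Notch3 KO T-ALL (n = 3). For Psmb8 over Psmb5, 11 WT T-ALL and all 3 Notch3 KO T-ALL points lie below the lowest thymus point at 1.47.

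Psmb8 and Psmb9 lie in the MHC class II region of chromosome 17, among the genes of the transporter that carries proteasome products into the endoplasmic reticulum. Psmb9 and Tap1, a subunit of that transporter, are read in opposite directions from starts 225 bases apart in the GRCm38 annotation, 969 bases separate Tap1 from Psmb8, and 3024 bases separate Psmb8 from Tap2, the other transporter subunit. The RefSeq promoter window of Psmb9 (GRCm38.p6, chr17:34187281-34187580, minus strand, from 250 bases before to 50 bases after its start) shares 275 bases with that of Tap1, and is shown because it serves 2 genes that moved apart. Capitals mark the bases between the starts of the 2 genes.
Psmb9: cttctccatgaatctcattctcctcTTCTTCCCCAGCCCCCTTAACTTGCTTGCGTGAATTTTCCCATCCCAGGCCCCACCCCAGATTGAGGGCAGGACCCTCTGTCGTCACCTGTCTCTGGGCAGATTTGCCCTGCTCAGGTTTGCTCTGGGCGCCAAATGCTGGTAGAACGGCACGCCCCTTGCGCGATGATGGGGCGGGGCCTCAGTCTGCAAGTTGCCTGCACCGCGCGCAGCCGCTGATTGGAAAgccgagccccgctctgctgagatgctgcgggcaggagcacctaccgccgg
While Psmb9 was higher in WT T-ALL, Tap1 was lower, with 5.01 to 5.46 in thymus (median 5.32) and 4.01 to 5.74 in WT T-ALL (median 4.51), a difference of -0.57 (limma adjusted p = 0.0215). Of the 14 leukemias, 11 lay below every thymus sample for Tap1 and 2 above. Tap2 had a difference of -0.09 (limma adjusted p = 0.673).

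**Figure D4:**
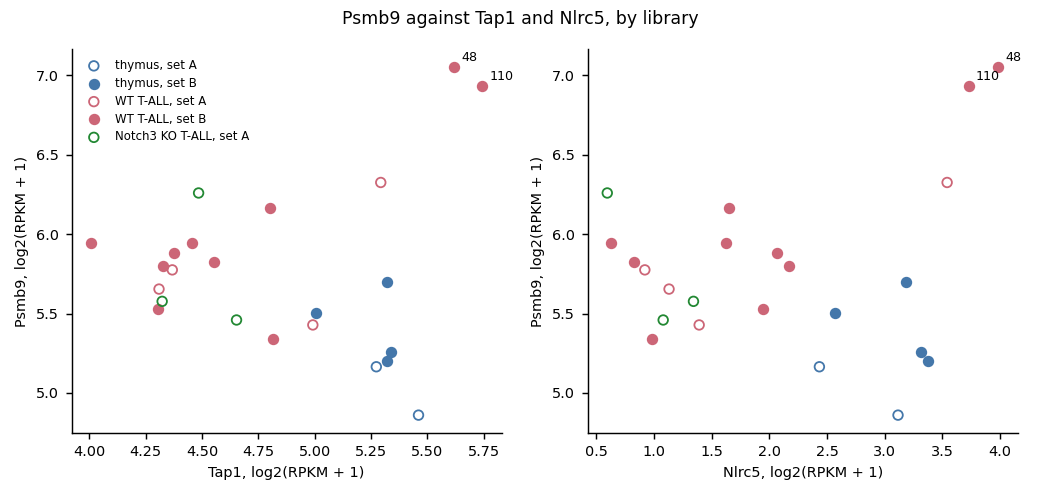
Level of Psmb9 against Tap1 (left) and Nlrc5 (right) in each library, as log2(RPKM + 1), coloured by group, with open points for set A and labels on WT T-ALL libraries 48 and 110. Thymus libraries lie at low Psmb9 and high Tap1, most leukemias at higher Psmb9 and lower Tap1, and WT T-ALL 48 and 110 are high in all 3 genes.

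Of the 13 genes of interferon-linked antigen processing, 1 rose and 8 fell in WT T-ALL against thymus, beside 29.3% and 22.3% of all genes. B2m, the light chain of MHC class I, was higher by 0.85 (limma adjusted p = 0.0476), a call kept by 3 of 13 alternative settings. Tapbp, which loads peptide onto MHC class I, was lower (-0.74), as were Nlrc5 (-1.099), the transcriptional activator of MHC class I genes, and the interferon gamma receptor chains Ifngr1 (-1.44) and Ifngr2 (-1.01). The kinases Jak1 (-0.82) and Jak2 (-0.49) and the feedback inhibitor Socs1 (-2.39) were also lower. The transcription factor Irf1 (0.29, limma adjusted p = 0.286) and the peptidase Erap1 (0.30, limma adjusted p = 0.345) did not pass. The median difference of the list was -0.57. Of the 13 alternative settings, 12 kept the lower call of Socs1 and of Ifngr2, 11 those of Ifngr1, Jak1 and Tapbp, 9 that of Tap1, 8 that of Jak2 and 7 that of Nlrc5. With the erythroid score as a covariate only Jak1 of these 8 still passed.

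Among the WT T-ALL libraries, the levels of Psmb8, Psmb9 and Psmb10 were set against those of Tap1, Irf1 and Nlrc5, and p-values were adjusted over the 12 relations computed, of which these 9 are given. Psmb9 and Nlrc5 had the highest Pearson r of the 9, at 0.81 (n = 14, permutation p = 0.00096, adjusted p = 0.00576), with a Spearman rho of 0.56 (permutation p = 0.04199, adjusted p = 0.126). Without the 2 libraries farthest from the median of Nlrc5, 48 and 110, r was 0.50, and within the 10 libraries of set B, which holds both, it was 0.82. Psmb9 had r of 0.72 with Tap1 and 0.68 with Irf1 (permutation p = 0.00528 and 0.00859, adjusted p = 0.0211 and 0.0258), with rho of 0.45 and 0.49 (permutation p = 0.112 and 0.0748). Without libraries 48 and 110 these r were 0.175 and 0.12, so that they rested on those libraries, and in set B they were 0.80 and 0.89.

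Psmb8 and Psmb10 with the same 3 genes had r of 0.41 to 0.63 over all 14 libraries and of -0.34 to 0.34 without libraries 48 and 110. Of the 9 relations, 0 had a Spearman rho that passed adjustment (the lowest adjusted permutation p was 0.0916, for Psmb8 and Irf1), while 2 had an unadjusted p under 0.05. The 4 libraries of set A were too few for a value of their own.

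The second comparison asked the same of leukemia from Notch3 knockout thymus, with the same 6 thymus samples as controls. Of the 46 genes, 13 were higher and 0 lower in Notch3 KO T-ALL (limma adjusted p under 0.05), against 21.2% higher and 16.3% lower over all 11919 genes. The groups did not overlap for 12 proteasome genes, all higher in T-ALL, while 23.9% of all genes were higher and 18.4% lower without overlap. The 12 of 46 were thus near the share of all genes that were higher without overlap. The median difference was 0.49, against 0.08 over all genes. By role the calls were 1 of 7 alpha ring subunits (Psma7), Psmb2, Psmb7, 3 of 6 ATPases (Psmc1, Psmc2 and Psmc3), 3 of 14 non-ATPase subunits (Psmd1, Psmd7 and Psmd11), Psme3, Psmf1 and the chaperones Psmg1 and Psmg4.

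With 3 libraries the count turned on each of them. Notch3 KO T-ALL 2 had the lowest level of the 3 in 42 of 46 genes, and its ribosomal protein median was also the lowest of the 3, at 10.5. Without it 20 genes were called higher, where 20.9% of all genes were. Without library 1 or library 3 the number was 8 each, near the shares of all genes of 15.4% and 13.4%. With the set as a term 24 were higher (22.2% of all genes), and within set A (3 and 2 libraries) 14 (15.3%). Without WT T-ALL 14, 36 and 48, which enter the shared estimate of the spread, 21 were higher (22.7%), and with the erythroid score as a covariate 0, where 1.62% of all genes were called higher and 2 of the 46 had an unadjusted p under 0.05. Quantile normalization gave 11 higher and 1 lower (Psmb8), with 17.5% and 20.1% of all genes. The correction for GC content and length gave 9 higher and 2 lower (Psmb8 and Psmd10), with 16.9% and 21.6%, so that its count of higher genes was near the share of all genes.

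Psmg1 again showed the highest difference. It stood at 6.20, 5.14 and 5.59 in the 3 libraries, all above the highest thymus value of 4.82, and the difference was 1.10 (SE 0.22, limma adjusted p = 0.000428). The inhibitor Psmf1 stood at 4.00, 4.66 and 4.63 against 3.23 to 3.50 in thymus, with a difference of 1.02 (SE 0.20, limma adjusted p = 0.00039). Psme3, the nuclear cap, was almost equal in the 3 libraries at 6.81, 6.84 and 6.79 against 5.41 to 6.15 in thymus, and differed by 0.97 (SE 0.21, limma adjusted p = 0.000934). In these genes the knockout leukemias lay above thymus in every library, as they did for 23.9% of all genes.

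The structural subunit Psmb2 stood at 7.47, 7.24 and 7.27 against 6.11 to 6.48, a difference of 0.99 (SE 0.23, limma adjusted p = 0.00187). The ATPases Psmc2 and Psmc1 differed by 0.87 (limma adjusted p = 0.0144) and 0.81 (limma adjusted p = 0.00824), without overlap. Of the catalytic subunits, Psmb7 passed the test. It stood at 7.86, 7.20 and 7.83 against 6.19 to 7.47, so that library 2 lay within the thymus range, and the difference was 0.81 (SE 0.30, limma adjusted p = 0.0375).

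The other catalytic subunits did not pass in this comparison. Psmb5 differed by 0.34 (limma adjusted p = 0.37), Psmb6 by 0.30 (0.364), Psmb9 by 0.48 (0.223) and Psmb10 by 0.22 (0.576). Psmb8 stood at 7.49, 7.13 and 7.99 against 7.25 to 8.16 in thymus, with a difference of -0.20 (SE 0.25, limma adjusted p = 0.546). It was called lower at -0.64 under quantile normalization (limma adjusted p = 0.0142) and at -0.59 with the correction for GC content and length (0.0459), and it was above 0 at 0.03 with the set as a term. PA28 differed by 0.35 for Psme1 and 0.27 for Psme2, neither of which passed.

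In this comparison 0 of the 13 interferon-linked genes were higher and 5 lower, beside 21.2% and 16.3% of all genes. Tap1 stood at 4.32, 4.65 and 4.49 against 5.01 to 5.46 in thymus, without overlap, and was lower by 0.80 (difference -0.80, limma adjusted p = 0.0357). Socs1 (-3.19), Nlrc5 (-1.99), Ifngr2 (-1.20) and Ifngr1 (-1.18) were lower too. With the erythroid score as a covariate none of these 5 passed, and within set A Tap1, Nlrc5 and Ifngr1 did not. The call of Tap1 was kept in 17 of 23 fits that left out a single library. Jak2 (-0.67), Tapbp (-0.59), Jak1 (-0.52), Tap2 (-0.15), Erap1 (-0.08), Irf1 (0.17) and B2m (0.34) did not pass. Side by side, against the shared thymus samples, the difference of Psmb9 was 0.69 for WT and 0.48 for Notch3 KO leukemias, and that of Tap1 was -0.57 and -0.80.

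The third comparison asked whether loss of Notch3 in the donor thymus altered these genes in leukemia. Of the 46 genes, 0 were called in either direction by limma (2 had an unadjusted p under 0.05), while 0.591% of all 11677 genes were called higher and 0.0257% lower in Notch3 KO T-ALL. The same count of 0 held in every alternative run for this comparison. The median difference was 0.01, against -0.00 over all genes, and 24 of 46 were above 0. No proteasome gene was without overlap between the groups, where 0.325% of all genes were higher and 0.111% lower without overlap. With 3 libraries in a group these values do not show that the groups are alike.

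The 2 genes with an unadjusted p under 0.05 were Psmf1 and Psme3. Psmf1 was at 4.00, 4.66 and 4.63 in Notch3 KO T-ALL against 3.27 to 4.36 in WT T-ALL, with libraries 2 and 3 above every WT T-ALL library and a difference of 0.58 (SE 0.20, limma adjusted p = 0.246). Psme3 was within the WT T-ALL range of 5.95 to 6.90, with a difference of 0.44 (SE 0.18, limma adjusted p = 0.437). The differences of the catalytic subunits were -0.32 for Psmb5 (SE 0.28), -0.12 for Psmb6 (SE 0.24), 0.21 for Psmb7 (SE 0.27), -0.29 for Psmb8 (SE 0.23), -0.21 for Psmb9 (SE 0.30) and -0.49 for Psmb10 (SE 0.30). The most negative was that of Psme2, at -0.49 (SE 0.35, limma adjusted p = 0.864).

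The wild-type leukemias also differed among themselves. The median SD of the 46 genes was 0.41 in WT T-ALL, 0.28 in thymus and 0.36 in Notch3 KO T-ALL, against 0.41, 0.23 and 0.32 over all genes that passed the filter. WT T-ALL 14 had the highest level of the 14 libraries in 37 of 46 genes, and libraries 14, 36 and 48 made up the top 3 in 19. Libraries 7, 5 and 202 had the lowest level in 14, 11 and 7 genes. The median over all 48 proteasome genes ran from 6.26 in library 7 to 7.17 in library 14.

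Over pairs of proteasome genes, the median Pearson r across the 14 WT T-ALL libraries was 0.55, with quartiles of 0.35 and 0.72, and 959 of 1035 pairs were positive. All pairs share the same libraries and their scaling. The genes least like the others, by their median r with the rest, were Psme3 (-0.04), Psmd3 (0.09), Psmb9 (0.15) and Psmf1 (0.22), and those most like were Psma3 (0.73), Psmd12 (0.72) and Psmb3 (0.71). The median proteasome level of a library also ran with its ribosomal protein median (r = 0.945, rho = 0.93 over 14 libraries), as the plot of the 2 medians shows. The part of the ribosomal protein level in the differences between groups was not tested.

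**Figure D5:**
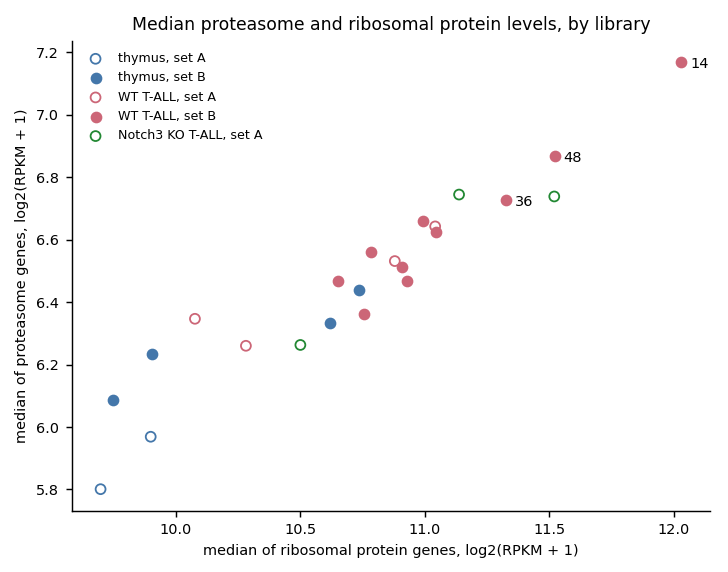
Median log2(RPKM + 1) of all 48 proteasome genes against that of the ribosomal protein genes, with 1 point per library, coloured by group and open for set A. The 2 medians rise together, with WT T-ALL 14, 48 and 36 at the upper right and the 2 thymus libraries of set A at the lower left.

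Genes that work with the proteasome but do not carry its name were taken as a further list, of which 23 were in the table and tested. In WT T-ALL against thymus 11 were higher and 3 lower, with 29.3% and 22.3% of all genes. Among those that rose were the deubiquitinases Usp14 (1.05, limma adjusted p = 0.000592) and Uchl5 (0.86), which act on substrates at the regulatory particle, Rps27a (0.86), which encodes ubiquitin fused to a ribosomal protein, and Pomp (0.69), the maturation factor of the core. Among those that fell were the shuttle factor Ubqln1 (-0.39) and Nfe2l1 (-0.31, limma adjusted p = 0.0472), the transcription factor known for raising proteasome genes when proteasome activity is short. The median difference of the list was 0.36.

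In Notch3 KO T-ALL against thymus 8 were higher and 2 lower, with 21.2% and 16.3% of all genes. Among those that rose were Shfm1 (1.14), a small subunit of the regulatory particle also named Sem1, Usp14 (0.84) and Uchl5 (0.81). The glycanase Ngly1 (-0.95), which acts on Nfe2l1, and the shuttle factor Ubqln2 (-0.69) were lower.

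The promoter windows of the proteasome genes were searched for 3 sequence motifs on both strands, in the RefSeq windows (GRCm38.p6) that hold 250 bases before and 50 bases after the start. A window was at hand for 40 of the 48 genes, and for 27025 genes in all. The antioxidant response element TGACNNNGC, the letters bound by the factors Nfe2l1 and Nfe2l2, was in 6 of the 40 (15.0%), against 14.0% of all genes. The gamma-activated site TTCNNNGAA, the interferon gamma response motif, was in 3 of 40 (7.5%), against 9.6%, and the interferon-stimulated response element, which was searched as GAAA repeated after 2 bases of any kind, was in 5 of 40 (12.5%), against 4.0%. A match is a description of the letters, not of binding.

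The response element was in the windows of 2 of the 3 constitutive subunits and of 0 of the immuno subunits, and the windows of Psmb5 (chr14:54617946-54618245, minus strand) and Psmb6 (chr11:70525107-70525406, plus strand) are shown to place it, with the match in capitals, 47 and 9 bases before the start. No window was at hand for Psmb7.
Psmb5: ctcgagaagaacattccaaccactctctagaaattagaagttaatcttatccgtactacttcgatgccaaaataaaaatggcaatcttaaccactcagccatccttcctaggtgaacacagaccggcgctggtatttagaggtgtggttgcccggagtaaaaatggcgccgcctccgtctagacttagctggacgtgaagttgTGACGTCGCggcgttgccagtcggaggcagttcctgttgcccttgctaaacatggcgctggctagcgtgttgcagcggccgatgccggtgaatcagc
Psmb6: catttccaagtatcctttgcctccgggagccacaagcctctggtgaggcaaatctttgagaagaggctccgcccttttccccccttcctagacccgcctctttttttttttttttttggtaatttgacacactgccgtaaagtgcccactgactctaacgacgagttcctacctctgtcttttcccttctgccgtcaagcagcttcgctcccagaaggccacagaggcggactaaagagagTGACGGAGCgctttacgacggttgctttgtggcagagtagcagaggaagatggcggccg
Of the immuno subunits, Psmb8 held a gamma-activated site, in capitals, 97 bases before its start (chr17:34197945-34198244, plus strand), while the windows of Psmb9 and Psmb10 held 0 of the 3 motifs. Psmb8 was the immuno subunit that did not pass in WT T-ALL against thymus, and a relation of the motifs to the differences was not tested.
Psmb8: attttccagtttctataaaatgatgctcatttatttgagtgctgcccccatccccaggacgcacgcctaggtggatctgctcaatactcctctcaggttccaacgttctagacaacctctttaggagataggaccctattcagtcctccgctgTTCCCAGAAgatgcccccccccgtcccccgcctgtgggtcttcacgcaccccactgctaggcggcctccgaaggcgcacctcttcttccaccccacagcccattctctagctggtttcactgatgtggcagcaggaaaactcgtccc
Psme1, of the PA28 cap, held an interferon-stimulated response element on the opposite strand just after its start (chr14:55578244-55578543, plus strand), in capitals below, and the other 4 genes with this motif were Psmb3, Psmd4, Psmd9 and Psmg4.
Psme1: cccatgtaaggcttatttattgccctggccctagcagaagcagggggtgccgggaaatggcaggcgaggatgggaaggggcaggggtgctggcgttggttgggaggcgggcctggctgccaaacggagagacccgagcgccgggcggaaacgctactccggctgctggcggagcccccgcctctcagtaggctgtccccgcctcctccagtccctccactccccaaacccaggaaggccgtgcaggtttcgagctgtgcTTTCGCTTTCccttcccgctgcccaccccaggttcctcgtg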

How the data were processed

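RNA was measured in 23 mouse libraries (6 thymus, 14 WT T-ALL and 3 Notch3 KO T-ALL). Per the study's methods, stranded libraries were read as pairs and mapped by the authors with OSA (in ArrayStudio) against mm10 transcripts. The values deposited by the authors are on a log2 scale, and their distribution was read as log2(RPKM + 1) with the 75th percentile scaled alike. No counts were given, so the depth of single libraries is unknown and no counting interval is printed. No column of other series was present. Groups came from the labels. The members and lists were chosen with earlier results of these data known.

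Genes reaching an RPKM of 1 in 3 or more of the libraries fitted were tested with limma 3.58.1 (R 4.3.3, trend and robust; Python 3.11.15 and scipy 1.17.1 for the rest) over all genes, with Benjamini-Hochberg adjustment and a threshold of 0.05. Both comparisons with thymus used all 3 groups, and the third the T-ALL groups only. The 9 ratio differences had two-sided exact permutation tests (every split enumerated), and the 12 relations 100000 permutations. Each fit was tested on simulated data. Alternatives changed the offset (0.1), the filter (none, or 5), the normalization, the groups fitted, covariates and libraries. Named genes were the 7 catalytic subunits, Psme1, Psme2, the genes failing the filter, the interferon-linked list, the 6 other proteasome genes with the largest rise and fall among those called in each comparison, and the 5 partners likewise. Results for some genes of these lists are not reported here. Alternatives were run for the counts, the ratios, the named proteasome genes that passed the filter and the interferon-linked genes reported, but not for the partners, Psmb11 or Psma8 as named genes. Other genes named (among them Psmd4, Psmd10, Psmd14 and Psme4) were chosen after their values were seen. Numbers shared by labels did not pair the samples, which came from different animals (r of -0.235 to 0.151 between deviations).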

Additional observations from a re-analysis of the deposited data

How the results depend on the processing

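The number of proteasome genes called higher moved by more than 1.5 times under some alternatives, and the cause was not tested. In WT T-ALL against thymus (34 higher, 0 lower) it was 3 with the erythroid score (7.23% of all genes), 8 with the label number as a replicate block (14.1%), 5 in set A (8.84%), 16 in set B (23.1%) and 14 with the GC content and length correction (24.3%), and 1 gene was lower without the filter (Psmb11), 1 with quantile normalization (Psmd4) and 2 with the correction. In Notch3 KO T-ALL against thymus (13 higher, 0 lower) it was 0 with the erythroid score (1.62%), 8 with the replicate block (17.6%), 24 with the set as a term (22.2%) and 21 without WT T-ALL 14, 36 and 48 (22.7%), with 1, 1 and 2 lower without the filter, under quantile normalization and with the correction. Of 46 genes, 3 with the erythroid score, 8 with the block and 5 in set A are near those shares. With single libraries left out the counts ran from 22 to 36 (22 without thymus 6) and from 8 to 20. The numbers did not pair the samples, and no paired analysis was possible between the T-ALL groups because they share only 1 number. For all genes together the median difference of Notch3 KO T-ALL from thymus was 0.08, and -0.05 under quantile normalization and -0.06 under the correction.

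The Psmb8 to Psmb5 ratio in WT T-ALL against thymus passed (exact permutation) under quantile normalization (-0.81) and without WT T-ALL 14, 36 and 48 (-0.62), as did that of Notch3 KO T-ALL against thymus (-0.55) and Psmb10 to Psmb7 between the T-ALL groups (-0.67) without those 3. With single libraries left out, these ran from -0.65 to -0.52, -0.63 to -0.42 and -0.87 to -0.61, and without WT T-ALL 48 all 3 passed. WT T-ALL libraries take no part in the ratio of Notch3 KO T-ALL against thymus. Without WT T-ALL 14, 36 and 48 its difference and its exact permutation p of 0.0119 were unchanged. Only its adjusted p moved, from 0.0596 to 0.0495, because other ratio tests changed. Between the T-ALL groups, Psmb8 to Psmb5 ran from -0.054 to 0.16 and Psmb9 to Psmb6 from -0.21 to 0.14.

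Signs of single genes turned as follows. In WT T-ALL against thymus, Psmb6 was -0.11 with the GC content and length correction, Psmb7 -0.13 with the erythroid score, and Psmb8 -0.31 with quantile normalization, -0.28 with the erythroid score, -0.23 with the replicate block, -0.033 in set B, -0.040 without the 3 libraries and -0.21 with the correction. In Notch3 KO T-ALL against thymus, the correction gave Psmb5 -0.39, Psmb6 -0.41, Psmb10 -0.29 and Psme2 -0.45, the erythroid score gave Psmb6 -0.050, Psmb7 -0.31, Psmb9 -0.33, Psmb10 -0.44, Psme2 -0.62 and Psmc2 -0.10, quantile normalization gave Psmb6 -0.021 and Psme2 -0.025, and Psmb8 was 0.025 with the set as a term and 0.17 in set A. Between the T-ALL groups, Psmb6 was 0.049 with the set as a term and 0.049 in set A, and Psmb7 -0.11 with the erythroid score. Single left-out libraries gave -0.017 to 0.16 for Psmb8 in WT T-ALL against thymus, -0.044 to 0.52 for Psmb10 in Notch3 KO T-ALL against thymus and -0.26 to 0.15 for Psmb6 between the T-ALL groups. The library sets, the 3 libraries left out together and the correction were chosen after the data were seen. Library depth is unknown, so low levels such as those of Psmb11 have no counting error.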
